A study of Xenopus laevis with 111 samples.

Results

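The question was whether the effect of a spinal cord transection on mRNA levels in tadpole spinal cord differed between 10–12 h and 7–9 h after surgery. All animals of this comparison belonged to series S4, a single batch of *Xenopus laevis* tadpoles at NF stage 50. The 12 libraries were chosen by series, surgery and hour, with no measured value used, out of 111 libraries in all. They comprised transected animals at 10, 11 and 12 h, sham-operated animals at 10, 11 and 12 h, transected animals at 7, 8 and 9 h, and sham-operated animals at 7, 8 and 9 h. In transected animals the cord was cut through at mid-thoracic level, and in sham animals the skin and muscle over it were opened while the cord was left whole. Both therefore carried the same wound of the overlying tissue, and the difference between them is the injury effect described here. The tissue was the section of cord caudal to the injury level. The study's methods give 12 cords per pool in this series. Libraries of equal hour, 1 transected and 1 sham, formed a pair, because the study sampled both surgeries in parallel, which gave 6 pairs. For reference, the S4 pair at 6 h, the 0 h library of S4, the S5 pairs at 10, 11 and 12 h (other animals) and 6 libraries of uninjured S7 animals at 7 to 12 h were also examined.

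Tadpoles of this frog at this stage regrow a cut spinal cord and recover swimming, an ability that is lost at metamorphosis. Cells lining the central canal, which include neural stem and progenitor cells, divide after injury, and axons grow across the gap. Damage is followed by a rapid wave of transcription factor genes that need no new protein synthesis, then by later genes that depend on that wave. The hours compared here fall after the peak that the study reports for its early gene modules. In the study, those modules later declined but did not fall back to their starting levels. In whole tissue, fewer cells of a type and less RNA per cell cannot be told apart.

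Levels were measured by poly(A) mRNA-seq. The 12 libraries held 12.4 to 35.8 M expected counts, which are RSEM's estimates of reads per gene. The sham libraries of 9 and 11 h were the deepest, at 35.8 M each. Transected libraries at 10–12 h held 12.4 to 22.5 M and sham libraries of those hours 17.1 to 35.8 M, whereas transected libraries at 7–9 h held 13.6 to 16.8 M and sham libraries of those hours 16.6 to 35.8 M. The tables list 45099 gene models by number and give no symbols, and 0 of them matched the RefSeq gene table used here. Genes are therefore described as sets, cell type markers could not be checked against the labelled tissue, and 4 models are given by identifier.

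The injury effect was called different between the later and the earlier hours for a small set of genes, most of them more negative. Of 29814 gene models tested, 418 had a different transected minus sham difference at 10–12 h than at 7–9 h (1.40% of those tested, edgeR quasi-likelihood F-test, block on the pair, Benjamini-Hochberg adjusted p under 0.05). For 304 of them (1.02%) the difference was more negative at 10–12 h, with a median change of -0.69 on the log2 scale, and for 114 (0.382%) it was more positive, with a median change of 0.67. The changes ranged between -9.87 and -0.41 in the negative set and between 0.42 and 2.7 in the positive set. A change of at least 1 on the log2 scale was seen for 75 of the more negative and 16 of the more positive models. At an unadjusted p under 0.05 the same edgeR test had 4644 models, 2140 more positive and 2504 more negative. The 418 calls therefore do not measure how many genes changed, or the balance of directions among them. With library totals in place of TMM scaling, 381 models were called, 146 more positive and 235 more negative, so that the positive share was 38.3%, against 27.3% with TMM. Hours of 1 batch served as replicates, and the p-values measure only the spread between these pools.

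The count of 418 depended on the pairs and on the block. Without the block on the hour, edgeR called 52 models, 11 more positive and 41 more negative, and 51 of them were among the 418. With 1 pair left out in turn, edgeR called 51 models without the 7 h pair, 603 without 8 h, 117 without 9 h, 161 without 10 h, 126 without 11 h and 764 without 12 h. All 418 models kept their sign in each of these 6 fits, and 33 were called in every one. Pair differences of the later and earlier hours did not overlap in 303 of 304 more negative and 114 of 114 more positive models. Over all tested models this held for 3114 (10.4%) in the negative and 2914 (9.77%) in the positive direction. The kept signs thus follow in large part from the choice of the models by these same pairs.

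Within the hours, the injury effect itself was found in many more genes. At 10–12 h, 2965 models differed between transected and sham cords (9.94%), of which 1583 were higher (5.31%) and 1382 lower (4.64%) after transection (edgeR, adjusted p under 0.05, the same fit). At 7–9 h, 1910 models differed (6.41%), of which 1192 were higher (4.00%) and 718 lower (2.41%). Left-out pairs moved the first count to 1328 (without 10 h) and 1552 (without 11 h), and the second to 892 (without 9 h) and 990 (without 7 h). Without the 10 h pair the 7–9 h count was 2494, and without the 11 h pair it was 1806. In both of these fits it exceeded the 10–12 h count, but they held fewer pairs at 10–12 h than at 7–9 h. The order of the 2 counts in these fits therefore does not compare the periods. With library totals in place of TMM, 1842 models were higher and 1035 lower at 10–12 h. The size of the pair difference was compared as well, over models with a mean of at least 1 CPM (counts per M counts). The SD over 24748 gene models of the log2 ratio of transected over sham was 0.436, 0.385 and 0.369 at 10, 11 and 12 h, against 0.424, 0.390 and 0.374 at 7, 8 and 9 h. The mean was 0.396 ± 0.035 at 10–12 h and 0.396 ± 0.026 at 7–9 h (SD, n = 3 pairs each, exact two-sided permutation p = 1, where 0.1 is the smallest possible). Over models with a mean of at least 10 CPM it was 0.288 at 10–12 h and 0.286 at 7–9 h. This size thus depended on the level of the models and does not measure the injury effect alone.

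Part of the injury effect was shared by both periods. Of the models higher after transection, 598 were called both at 10–12 h and at 7–9 h, which is 37.8% of the later and 50.2% of the earlier list. Of the lower ones, 271 were called in both, which is 19.6% of the later and 37.7% of the earlier list. The 598 models had a median log2 difference of 0.66 at 10–12 h and 0.70 at 7–9 h, and the 271 models had -0.66 at 10–12 h and -0.58 at 7–9 h. A call in 1 period alone is not a test of the change, so the calls of the change were counted among such models. Of the 985 models called higher only at 10–12 h, 59 (5.99%) also passed the test of the change, and of the 1111 called lower only at 10–12 h, 198 (17.8%) did. Of the 594 models called higher only at 7–9 h, 105 (17.7%) passed it, and of the 447 called lower only at 7–9 h, 44 (9.84%) did. Over all tested models the share was 0.382% for the more positive and 1.02% for the more negative change, but the calls within the periods and the call of the change come from the same libraries, so nothing is read from these shares. The 979 models higher at 10–12 h and not called at 7–9 h had median log2 differences of 0.48 and 0.16, and the 1085 lower at 10–12 h and not called at 7–9 h had medians of -0.39 and -0.03.

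**Figure D1:**
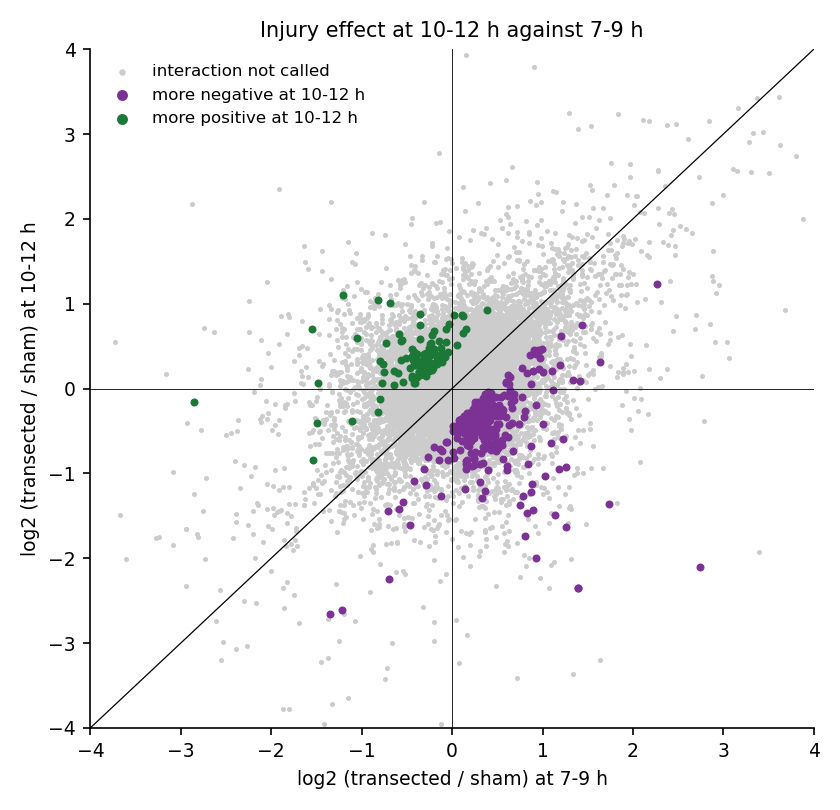
Each point is 1 gene model, with the log2 ratio of transected over sham at 10–12 h on the y axis and at 7–9 h on the x axis. The diagonal marks an equal effect. The 304 models whose effect was more negative at 10–12 h (purple) lie below it, mostly right of 0 and under 0, and the 114 more positive ones (green) lie above it. A total of 34 points fell outside the range of -4 to 4, 1 of them called.

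The 304 models with a more negative effect at 10–12 h fell into a few classes. The calls within the periods and the call of the change come from the same fit, so the classes are a description. The plot of the effect at 10–12 h against that at 7–9 h shows most of them in the quadrant of lower later and higher earlier. The largest class held 172 models that were lower after transection at 10–12 h and not called at 7–9 h, with median log2 differences of -0.50 at 10–12 h and 0.21 at 7–9 h. A further 79 models were not called at 10–12 h and were higher after transection at 7–9 h, with medians of -0.19 and 0.56. In 26 models the effect turned over, being called lower at 10–12 h and higher at 7–9 h, with medians of -0.48 and 0.44. Over all tested models these classes held 3.64%, 1.91% and 0.0872%, in the order given. Every tested model of the class that turned over was called for the change. Another 10 models were higher in both periods but less so at 10–12 h (0.46 against 0.97), 6 were lower in both and more so at 10–12 h (-1.43 against -0.65), and 11 were called in neither.

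The 114 models with a more positive effect were divided in a similar way. There were 53 models higher after transection at 10–12 h and not called at 7–9 h, with median log2 differences of 0.43 at 10–12 h and -0.20 at 7–9 h. In 38 models no difference was called at 10–12 h and the level was lower after transection at 7–9 h, with medians of 0.18 and -0.46. The effect turned over in 6 models, which were higher at 10–12 h and lower at 7–9 h, with medians of 0.37 and -0.40. Over all tested models these classes held 3.28%, 1.48% and 0.0201%, in the order given. They too come from the fit that called the change and are a description. Of the remainder, 1 was higher in both, 2 were lower in both and less so at 10–12 h (-0.62 against -1.32), and 14 were called in neither.

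A change of a difference can come from either side of it, and here both sides moved. Among the 304 models, the level in transected cords was lower at 10–12 h than at 7–9 h for 299, with a median log2 change of -0.37, and the level in sham cords was higher at 10–12 h for 301, with a median log2 change of 0.33. Both held together for 296 of the 304, against 7959 of all 29814 tested. Among the 114 models, the transected level was higher and the sham level lower at 10–12 h in all 114, with medians of 0.32 and -0.33, against 8510 of all tested. These signs follow in part from the choice of the models by the change of their difference, and they are given as a description. Tested on its own, the transected change from 7–9 h to 10–12 h was called for 27 models (0.0906%), 11 higher (0.0369%) and 16 lower (0.0537%), and the sham change for 26 (0.0872%), 23 higher (0.0771%) and 3 lower (0.0101%) (edgeR, 4 group means, adjusted p under 0.05). Of the 304 models, 9 were among the transected calls and 16 among the sham calls. Of the 114, 3 were among the transected calls and 0 among the sham calls. Both counts moved with single libraries. Without the transected 7 h or 12 h library edgeR called 0 transected changes, with 2438 and 2837 at an unadjusted p under 0.05, and it called 10 without the 11 h, 54 without the 9 h and 404 without the 8 h library. The sham count was 1 without the 7 h sham library, 4 without 8 h, 3 without 11 h, 58 without 9 h and 137 without 12 h.

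The level of the sets was described in each library. The models were chosen by the change between these 12 libraries, so a crossing between 9 and 10 h follows in part from the choice. The median level of the 304 models, as log2 relative to the mean of the 12 libraries, was -0.24, -0.18 and -0.27 in transected cords at 10, 11 and 12 h, against 0.37, 0.22 and 0.01 in sham cords of those hours. At 7, 8 and 9 h it was 0.26, -0.08 and 0.30 in transected cords, against -0.16, -0.23 and -0.02 in sham cords. The transected libraries of 10–12 h thus lay below all 3 sham libraries of their hours, and the 8 h transected library was the lowest of its group. The 0 h library of S4, which took no part in the choice, had a median of -0.24, close to the transected libraries of 10–12 h and to the sham libraries of 7 and 8 h.

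In the 114 models the order was the opposite. Their median level was 0.17, 0.14 and 0.16 in transected cords at 10, 11 and 12 h, against -0.24, -0.18 and -0.03 in sham cords, and it was -0.19, -0.01 and -0.32 in transected cords at 7, 8 and 9 h, against 0.23, 0.22 and 0.10 in sham cords. The 0 h library had 0.20. At 6 h the transected library had 0.04 and the sham library 0.24. In both sets the sham libraries of 10–12 h and the transected libraries of 7–9 h had medians on the other side of 0 from the 0 h library, which is a single pool, except the 8 h transected library in the 304 models.

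**Figure D2:**
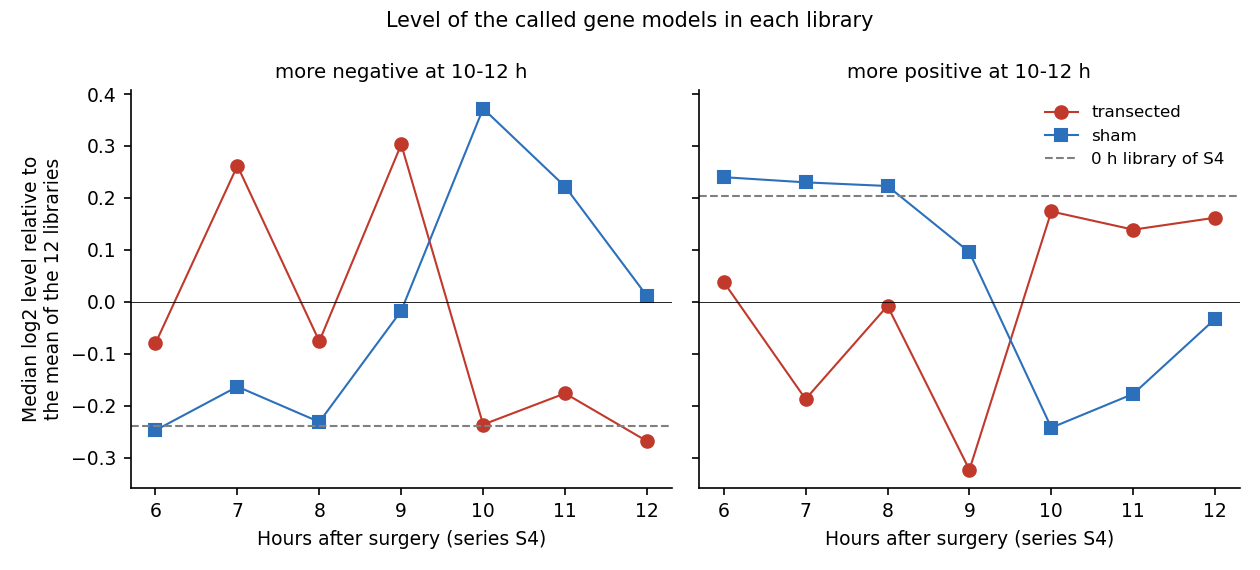
Median log2 level of the 304 models with a more negative effect (left) and of the 114 with a more positive effect (right) in each S4 library, relative to the mean of the 12 libraries of 7 to 12 h, by hours after surgery. Red circles are transected and blue squares sham libraries, and the dashed line is the 0 h library of S4, at -0.24 on the left and 0.20 on the right. The lines cross between 9 and 10 h in both panels, which follows in part from the choice of the models by the change between these hours.

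Uninjured animals were examined for drift over the same hours. In the 6 S7 libraries, edgeR called 0 of 29075 models between 10–12 h and 7–9 h (0%), with 462 at an unadjusted p under 0.05. The root of the common dispersion, a measure of the spread between libraries, was 0.274 in this fit, which had no block. In S4 it was 0.0943 in the fit of 4 group means, also without the block, and 0.0863 in the blocked fit. The uninjured median change was -0.02 for the 304 models and 0.19 for the 114 models, which were above 0 in 75.4% of cases, against 46.7% of all models measured in both.

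Hour by hour, the pair differences of the called models changed sign between 9 and 10 h. In the 304 models the median log2 ratio of transected over sham was 0.42, 0.16 and 0.34 at 7, 8 and 9 h and -0.56, -0.39 and -0.27 at 10, 11 and 12 h. In the 114 models it was -0.42, -0.19 and -0.37 at 7, 8 and 9 h and 0.47, 0.34 and 0.20 at 10, 11 and 12 h. The largest size was at 10 h and the smallest at 8 h in both sets. These 6 hours chose the models, so the values are a description.

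The 6 h pair of S4 was not used in the choice. There the 304 models had a median of 0.16, with 210 above 0 (69.1%, against 50.9% of all tested), on the side of 7–9 h. The 114 models had a median of -0.14, with 84 below 0 (73.7%, against 49% of all tested), again on the side of 7–9 h. When the 6 h pair was added to the earlier hours, 401 models were called, and 305 of them were among the 418.

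In S5, another batch of animals, the pairs of 10 and 11 h did not show the S4 direction of 10–12 h in most of the 304 models at both hours. Their median was -0.04 at 10 h, with 165 below 0 (54.3%, against 51.1% of all tested), and 0.17 at 11 h, with 200 above 0 (65.8%, against 50% of all tested), the side of 7–9 h in S4. In S4 at 10 and 11 h, 271 and 281 of them were below 0. The median of the 114 models was 0.06 at 10 h and -0.03 at 11 h, with 66 (57.9%) and 52 (45.6%) above 0, against 48.5% and 50% of all tested, and 107 and 104 were above 0 in S4. The 26 models whose effect turned over in S4 had medians of -0.02 and 0.29 at 10 and 11 h of S5, against -0.71 and -0.41 in S4, and 22 of them (84.6%) were above 0 at 11 h of S5.

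The S5 pair of 12 h differed from its neighbours. The median there was -0.66 for the 304 models, with 227 below 0 (74.7%, against 46.7% of all tested). For the 114 models it was 0.34, with 77 above 0 (67.5%, against 53% of all tested). Both are the direction of 10–12 h in S4. The spread over all tested models was also wider, with quartiles of -0.46 and 0.57, against -0.27 and 0.24 at 10 h. In these 2 libraries 35.1% of the nonzero expected counts were whole numbers in the transected and 43.1% in the sham library. The 12 S4 libraries had 35.5 to 42.9% and the 4 S5 libraries of 10 and 11 h 40.9 to 43%. Depth differed too, at 25 M in the transected and 17 M in the sham library of 12 h. In S4 the deepest of the 12 libraries, sham at 9 h (35.8 M), had the lowest share. In the S5 libraries of 13 to 18 h this share was 27.4 to 37.4% in transected and 33.5 to 37.6% in sham cords, so the transected library of 12 h lay in the range of the later S5 libraries and the sham library of 12 h near the earlier ones. From 11 to 12 h the 304 models changed by a median of -0.65 on the log2 scale in transected cords of S5 and by 0.29 in sham cords, and from 12 to 13 h by 0.13 in transected and -0.59 in sham cords. A fall of similar size thus came 1 h apart in the transected and the sham libraries of S5, and the pair of 12 h lies between. The share of whole counts and the levels of the 304 models thus moved at the same hours of S5. The 114 models changed by a median of 0.39 in transected cords from 11 to 12 h. In sham cords they changed by only 0.09 from 12 to 13 h. The part of depth or of another difference between libraries in the 12 h values was not tested.

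**Figure D3:**
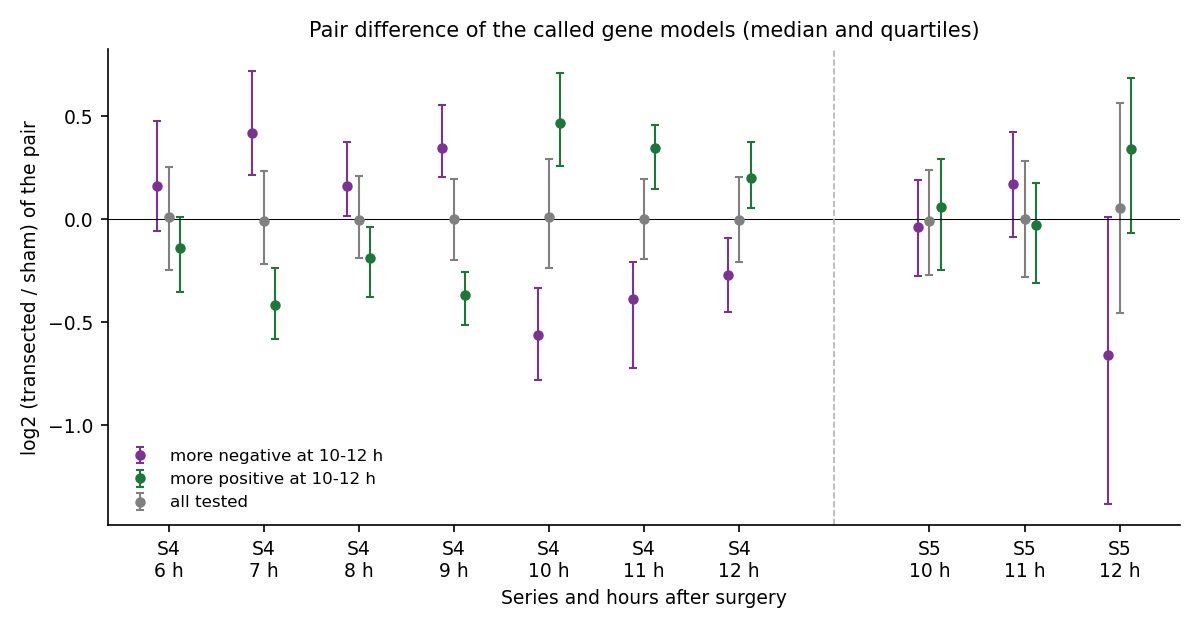
Log2 ratio of transected over sham in each pair of S4 (6 to 12 h) and S5 (10 to 12 h), as the median (points) and quartiles (bars) over the 304 models with a more negative effect at 10–12 h of S4 (purple), the 114 with a more positive effect (green) and all 29814 tested (grey). The S4 medians change sides between 9 and 10 h, and those of S5 lie between -0.04 and 0.17 at 10 and 11 h and at -0.66 and 0.34 at 12 h.

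The sign in S5 was then counted for models called at 10–12 h in S4 with and without a called change of effect. The 12 h pair of S5 was left out of this count, because the levels in S5 stepped around it. Of the 204 models called lower at 10–12 h with a change in that direction, 75 (36.8%) were below 0 in both S5 pairs of 10 and 11 h, against 778 of 1176 (66.2%) called lower without such a call of change and 32.4% of all tested. Of the 60 models called higher at 10–12 h with a change in that direction, 30 (50%) were above 0 in both S5 pairs, against 1223 of 1513 (80.8%) without and 31.3% of all tested. The genes are not independent replicates, and the difference between the shares was not tested. The median effect at 10–12 h in S4 was -0.50 with and -0.40 without the change among the lower ones. Among the higher ones it was 0.42 with and 0.54 without it. The groups without a called change also hold most models called in both periods. Only 8 of the 271 lower in both and 11 of the 598 higher in both had a called change. The groups thus differ in more than the change.

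The same count was made for models called only at 7–9 h in S4. There were 79 models called higher only at 7–9 h in S4 with a change towards the negative. Of these, 59 (74.7%) were above 0 in both S5 pairs of 10 and 11 h, against 31.3% of all tested. The 79 had medians of 0.29 and 0.40 there, although their S4 median at 10–12 h was -0.19. A further 38 models were called lower only at 7–9 h with a change towards the positive. Of these, 18 (47.4%) were below 0 in both S5 pairs, against 32.4% of all tested. The 38 had medians of -0.20 and -0.17 there, against 0.18 at 10–12 h in S4.

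For the genes called in the same direction in both periods of S4, the sign in S5 was mostly that of S4. The 598 models higher in both had medians of 0.79 and 0.86 at 10 and 11 h of S5. Above 0 were 562 (94%) and 579 (96.8%), against 48.5% and 50% of all tested. The 271 models lower in both had medians of -0.59 and -0.67. Below 0 were 259 (95.6%) and 261 (96.3%), against 51.1% and 49.7% of all tested. At 6 h of S4, 544 of the 598 (91%) were above 0, against 50.9% of all tested. Of the 271, 214 (79%) were below 0, against 49% of all tested. The libraries of S4 and S5 labelled transected and sham at 10 and 11 h thus had the same direction for these genes.

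**Figure D4:**
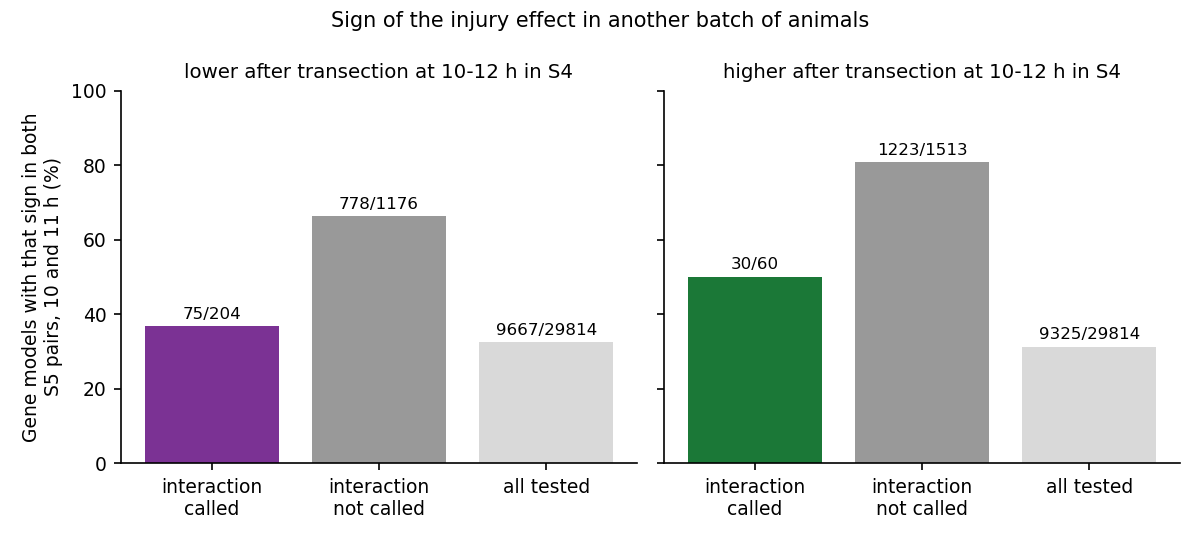
Share of the models called at 10–12 h in S4 whose pair differences at 10 h and 11 h of S5 both had the same sign, in percent, for models lower (left) and higher (right) after transection. Bars are the models with a change of effect from 7–9 h (coloured), those without (dark grey) and all tested (light grey), with counts above. The coloured bars, 36.8% and 50%, lie below the dark grey ones, 66.2% and 80.8%. The dark grey bars include most models called in both periods.

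The likeness of the pairs was described over the models with a mean of at least 1 CPM. The correlation of the pair differences across 24748 gene models lay between 0.406 and 0.513 among the pairs of 10, 11 and 12 h, between 0.423 and 0.564 among those of 7, 8 and 9 h, and between 0.202 and 0.408 across the 9 combinations of the 2 periods. The 6 h pair correlated with those of 10–12 h at 0.00942 to 0.258 and with those of 7–9 h at 0.176 to 0.325. The S5 pair of 10 h correlated with the S4 pairs of 10–12 h at 0.323 to 0.42 and with those of 7–9 h at 0.291 to 0.477. The S5 pair of 11 h correlated with them at 0.312 to 0.354 and 0.342 to 0.477, and that of 12 h at 0.211 to 0.341 and 0.0671 to 0.22, in the same order. The ranges overlapped for each of these 3 S5 pairs, for that of 12 h only between 0.211 and 0.22. In the same order the medians were 0.36 and 0.328 for the S5 pair of 10 h and 0.354 and 0.365 for that of 11 h. For that of 12 h they were 0.314 and 0.0697. The correlations are across genes, which are not independent replicates.

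Few low models were called. The called share was 0.138% of the models under 1 CPM (counts per M counts), 0.925% between 1 and 10 CPM, 2.16% between 10 and 100 CPM and 2.08% above, and the median standard error of the change was 0.785, 0.271, 0.133 and 0.123 on the log2 scale in these ranges. The median TPM, a level per transcript length, was 23.8 in the 304 models and 19.5 in the 114 models, against 7.27 in all tested. Their median effective length relative to all tested models was 0.862 and 0.867. Of the 418 models, 12 (2.87%) had a called model at the next or previous number, against 1.99% of the other tested models.

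The 33 models called in all 6 fits with a pair left out comprised 29 more negative and 4 more positive ones. The 29 had a median change of -0.94 on the log2 scale, between -3.1 and -0.63, with median differences of -0.66 at 10–12 h and 0.37 at 7–9 h. Of these 29, 25 were called lower and 1 higher at 10–12 h, and 14 were called higher and 1 lower at 7–9 h. Over all tested models, 4.64% were called lower and 5.31% higher at 10–12 h, and 4.00% higher and 2.41% lower at 7–9 h. The 29 were chosen by the change in these same libraries, so their calls are a description. In S5 their medians were -0.11 at 10 h, 0.04 at 11 h and -0.88 at 12 h. In both pairs of 10 and 11 h, 11 of the 29 were below 0 and 10 above 0, against 32.4% and 31.3% of all tested. The 4 more positive models had a median change of 0.74, with medians of 0.37 at 10–12 h and -0.40 at 7–9 h.

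The 4 models given by identifier had the most positive and most negative change among called models with at least 1 CPM and no overlap between the pair differences of the 2 periods. All were low in counts, with between 0 and 134 counts in a library.

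The model Xelaev18028987m.g had the most positive change. It had 2.29, 1.33 and 1.53 CPM in transected cords at 10, 11 and 12 h, against 0.398, 1.09 and 0.914 CPM in sham cords. At 7, 8 and 9 h it had 0.223, 0.748 and 0.586 CPM in transected cords, against 1.14, 1.16 and 1.36 CPM in sham cords. The transected libraries lay above all sham libraries at 10–12 h and below all of them at 7–9 h. The log2 difference was 1.10 ± 0.37 at 10–12 h and -1.21 ± 0.43 at 7–9 h (SE), and the change was 2.31 ± 0.57 (edgeR adjusted p = 0.0457). In S5 it had 0 to 7 counts in each of the 6 libraries of 10 to 12 h, and the pair differences were 1.02, 0.93 and 0.33.

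The model Xelaev18027872m.g had the next most positive change. It had 2.03, 1.76 and 1.60 CPM in transected cords at 10, 11 and 12 h, against 0.596, 0.894 and 1.20 CPM in sham cords, and 0.670, 1.09 and 0.716 CPM in transected cords at 7, 8 and 9 h, against 1.50, 1.69 and 1.22 CPM in sham cords. Neither period had overlapping groups. The change was 1.86 ± 0.45 (edgeR adjusted p = 0.0384). In S5 the pair differences were -1.36 at 10 h and -0.32 at 11 h, opposite in sign to S4 at those hours, and 0.79 at 12 h, with the sign of S4.

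The model Xelaev18005667m.g had the most negative change. It had 0.309, 0 and 0.840 CPM in transected cords at 10, 11 and 12 h, against 2.48, 1.12 and 0.857 CPM in sham cords, and the 12 h pair was nearly equal. At 7, 8 and 9 h it had 3.35, 0.518 and 3.19 CPM in transected cords, against 0.360, 0 and 0.636 CPM in sham cords, and the 8 h transected library overlapped the sham range. The change was -4.85 ± 0.88 (edgeR adjusted p = 0.0283). It had no counts in either library of 6 h of S4 or in the 4 libraries of 10 and 11 h of S5, and at 12 h of S5 it had 3 counts in the transected and 0 in the sham library.

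The model Xelaev18001435m.g had the next most negative change. It had 0.662, 0.351 and 0.458 CPM in transected cords at 10, 11 and 12 h, against 2.68, 3.74 and 1.43 CPM in sham cords. At 7, 8 and 9 h it had 4.61, 0.920 and 2.67 CPM in transected cords, against 0.6, 0.873 and 1.30 CPM in sham cords. The groups did not overlap at 10–12 h and overlapped at 7–9 h. The change was -3.74 ± 0.62 (edgeR adjusted p = 0.0135), and another gene model has identical counts in the 12 libraries, so the 2 cannot be separated. In S5 the pair differences were -0.28 at 10 h, 1.84 at 11 h and -1.08 at 12 h. None of these 4 models was called without the block (edgeR adjusted p of 0.0768, 0.0779, 0.207 and 0.0871 in the order given), and DESeq2 gave no adjusted p for any of the 4.

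**Figure D5:**
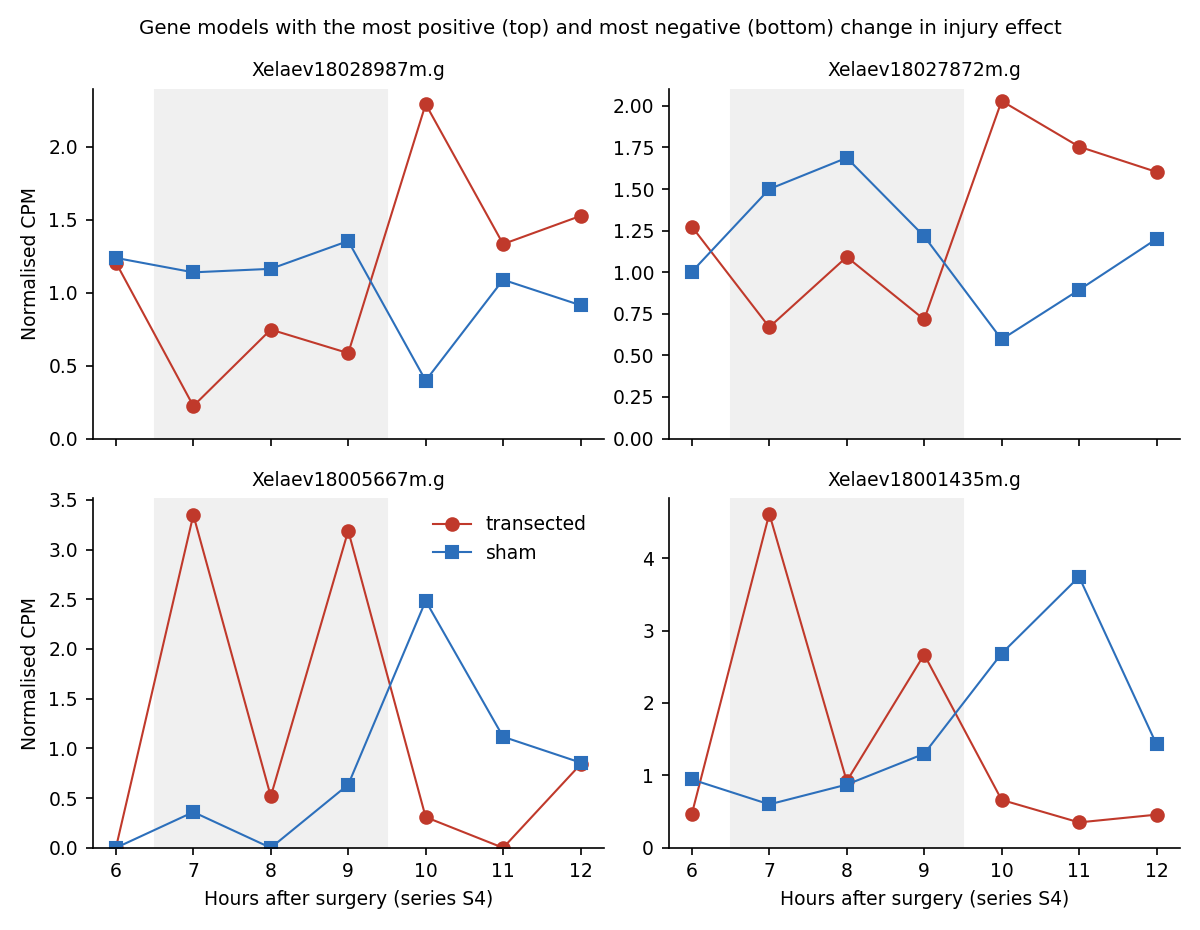
Normalised CPM of the 4 models given by identifier in each S4 library, by hours after surgery, with 7 to 9 h shaded. Red circles are transected and blue squares sham libraries. In the top row the transected libraries lie above sham at 10–12 h and below at 7–9 h, and in the bottom row they lie below sham at 10–12 h, nearly equal at 12 h for Xelaev18005667m.g.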

How the data were processed

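Members and lists were chosen with earlier results of these data known. The authors sequenced TruSeq v2 libraries on Illumina machines, used Bowtie and RSEM against the model transcriptome v9.1, and deposited expected counts and TPM per gene. The processing notes also name CASAVA 1.7. RSEM shares reads among similar homeologs, whose counts are uncertain.

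Expected counts were rounded. Models with at least 5 counts in at least 3 of the 12 libraries were tested with edgeR 4.0.16 in R 4.3.3 (TMM, robust quasi-likelihood F-test, pair, surgery, and surgery by period, 4 residual degrees of freedom, Benjamini-Hochberg over all tested). Pair differences used log2 CPM with a prior count of 2. Deposited TPM served for levels only. Alternatives included DESeq2 1.42.0, other scalings, filters and left-out pairs. The test was checked on simulated data in which the libraries of an hour shared a spread, so the check cannot tell whether the block is needed. The pair rests on the study's parallel sampling. The rule for naming models took the 2 most positive and 2 most negative changes among called models with at least 1 CPM and separated pairs. Prepared gene lists and cell type markers could not be used without symbols. Figures were drawn with matplotlib 3.10.9.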

Additional observations from a re-analysis of the deposited data

Results flagged for a closer look

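The 418 gene models with a different transected minus sham difference at 10–12 h than at 7–9 h were set apart because the difference between the periods was itself tested. Among them, the largest changes by the naming rule were 2.31 for Xelaev18028987m.g, 1.86 for Xelaev18027872m.g, -4.85 for Xelaev18005667m.g and -3.74 for Xelaev18001435m.g on the log2 scale. Groups of 3 libraries were not examined for outlying samples.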

How the results depend on the processing

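The change of effect was called for 418 models in the blocked edgeR fit, 213 with DESeq2 (170 shared, and 99 of the 418 had no adjusted p there), 1322 with no filter on low counts, 265 without robust estimation, 91 with an absolute log2 change of at least 1, 38 for a slope per hour and 26 in 1 fit over all 36 pairs. The block on the hour rests on parallel sampling. The correlation of same-hour deviations averaged 0.0675 and lay between -0.01 and 0.205, with the own hour highest for 3 of 6 pairs, and without the replicate block 52 models were called. Left-out pairs gave 51 to 764 calls. The effect at 10–12 h (2965 models) had 1488 calls with DESeq2, 467 with the fold threshold, 1140 in the fit of 36 pairs and 1328 to 2981 with a pair left out, and that at 7–9 h (1910 models) had 1106, 356, 835 and 892 to 2494. The change within transected cords (27) had 133 calls with no filter, 3 with the fold threshold and 0 to 404 with a library left out, and that within sham cords (26) had 129, 5 and 1 to 137. Uninjured cords had 0 in every edgeR fit, with 163 to 3559 at an unadjusted p under 0.05. The cause of these shifts was not tested. The 4 models given by identifier lost their call under 6 to 11 of 16 alternatives, which leave out DESeq2. They kept their sign in these 16, which follows in large part from the rule of separated pairs that chose them. With the 2 deepest sham libraries thinned (chosen after seeing the data) 395 models were called, and 417 with identical models entered once. Models under 1 CPM had a median standard error of 0.785, which limits what could be called there.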
